A study of Homo sapiens with 8 samples.

Results

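The 44 genes described here carry a cell from G1 into S phase and copy its DNA. They were chosen by name from the textbook machinery: helicase, origin licensing, clamp and loader, polymerases, ribonucleotide supply, cyclin E, E2F and S-phase chromatin genes. The choice was made with earlier results of these data known. All 44 of 44 had a row in the tables, and all 44 were among the 11340 genes tested, out of 23621 rows that are not spike-ins. Before S phase, the origin recognition complex, CDC6 and CDT1 load the MCM2-7 helicase onto origins. Cyclin E with its kinase then lets E2F factors act, CDC45 and GINS turn the loaded helicase into an active one, and polymerases copy the strands behind it while PCNA, set in place by replication factor C, keeps them on the template. Many of these genes are transcribed together in late G1 and S phase, and proliferating leukemia cells depend on them.

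RNA came from NALM6, a long-established leukemia line grown from human B-cell precursors. The cells carried a construct, HA-tagged by the sample names, for wild-type HMGN1 (WT) or for the S20,24E mutant, called SE here, which per the labels is deficient in nucleosome binding. HMGN1 is a chromatin protein encoded on chromosome 21. For 6 hours, cells of each construct were kept with 100 ng/ml doxycycline (DOX) or with vehicle alone, and RNA of 1000000 cells per sample was mixed with synthetic ERCC spike-in RNAs. The 4 groups, vehicle and DOX of WT and vehicle and DOX of SE, hold 2 libraries each, marked A and B in the labels as biological replicates. Whether the vehicle and DOX libraries of a letter came from the same culture is not stated, nor whether a construct is 1 clone or a pool, and nothing ties letter A of WT to letter A of SE. "Culture" below means the vehicle and the DOX library of a construct and letter. Values are FPKM, that is fragment counts divided by transcript length and by the mapped fragments of the library, from the table the authors deposited as unnormalized unless the normalized table is named. Log2 differences are of log2(FPKM + 0.1), errors are standard errors, and p-values are Benjamini-Hochberg adjusted over all 11340 genes, from limma, unless called unadjusted. A p that stands alone in parentheses after a difference is such an adjusted p, and a gene is called, or passes, at an adjusted p under 0.05.

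The libraries are described before the genes, since they differ by construct and letter. HMGN1, the gene to be induced, stood at 793 to 809 FPKM in the WT libraries, at 1061 (DOX) and 1066 (vehicle) in SE culture B and at 1421 (DOX) and 1427 (vehicle) in SE culture A, so that in each of the 4 cultures the library labelled DOX had slightly less of it than the vehicle library. Whether RNA of the construct was counted with the gene is not known. Spike-ins made up 0.531% to 0.569% of FPKM in the WT libraries, 0.719% and 0.763% in SE culture B, and 0.826% and 1.06% in SE culture A. The B-lineage markers were present in full, with 12 of 12 at a mean of at least 1 FPKM. Their summed level was 2030 to 2070 FPKM in SE A, 2360 to 2410 in SE B, 2180 to 2190 in WT A and 2380 to 2430 in WT B. IGLL1 was the highest of these markers, at a mean of 877 FPKM, so the sum depends strongly on that gene. Of 8 T-cell, 8 myeloid and 8 erythroid markers, 0, 1 and 0 reached a mean of 1. LYZ, the myeloid one, had 4.62 and 3.96 FPKM in WT A, 1.56 and 1.68 in WT B and 1.22 to 1.70 in the SE libraries. The myeloid sum was 4.62 to 5.15 FPKM in WT A and 2.19 to 2.30 in WT B. In SE it was 2.29 to 2.58 in A and 1.91 to 1.94 in B. LYZ made up most of that sum in every library, so WT A stood apart by LYZ. The T-cell sums lay between 0.425 and 0.594 FPKM and the erythroid sums between 0.204 and 0.419, and 3 T-cell, 1 myeloid and 3 erythroid markers were at 0 in every library. Read counts are not in the tables, so depth is unknown.

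Promoters of 5 of these genes are printed to show what the E2F words look like in genes at both ends of the results. ORC1 and POLE2 differed most between the SE cultures, and CDC6 and MCM2 belong to origin licensing and the helicase. E2F1 was the single gene not lower in SE culture A on the unnormalized scale. Its small difference did not pass, and the sign turned on the normalized scale. Sequences are RefSeq promoters on GRCh38.p14, 250 bases before to 30 bases after the annotated start, read on the gene's strand. Capitals mark matches to 4 E2F words, TTTCCCGC, TTTCGCGC, TTTGCCGC and TTTGGCGC, searched on both strands with overlaps allowed. A match is a match of letters and is no evidence of binding. Only these 4 exact words were sought, so a window without a match can still hold another form of the E2F site.
ORC1: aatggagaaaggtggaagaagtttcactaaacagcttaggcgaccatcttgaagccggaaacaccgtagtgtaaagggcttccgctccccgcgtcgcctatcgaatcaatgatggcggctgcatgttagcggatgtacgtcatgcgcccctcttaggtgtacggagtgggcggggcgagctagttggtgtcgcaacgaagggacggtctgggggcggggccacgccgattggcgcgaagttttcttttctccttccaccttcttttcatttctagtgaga
POLE2: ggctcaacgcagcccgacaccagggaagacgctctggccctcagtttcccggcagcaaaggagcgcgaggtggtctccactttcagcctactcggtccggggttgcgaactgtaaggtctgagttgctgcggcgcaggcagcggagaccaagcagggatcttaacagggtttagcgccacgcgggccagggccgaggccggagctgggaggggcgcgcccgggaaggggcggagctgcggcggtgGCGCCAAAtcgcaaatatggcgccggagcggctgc
CDC6: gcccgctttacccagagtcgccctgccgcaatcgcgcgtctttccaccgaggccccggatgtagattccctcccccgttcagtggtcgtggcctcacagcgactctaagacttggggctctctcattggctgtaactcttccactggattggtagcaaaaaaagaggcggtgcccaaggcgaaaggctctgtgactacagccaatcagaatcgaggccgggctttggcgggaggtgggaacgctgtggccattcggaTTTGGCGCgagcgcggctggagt
MCM2: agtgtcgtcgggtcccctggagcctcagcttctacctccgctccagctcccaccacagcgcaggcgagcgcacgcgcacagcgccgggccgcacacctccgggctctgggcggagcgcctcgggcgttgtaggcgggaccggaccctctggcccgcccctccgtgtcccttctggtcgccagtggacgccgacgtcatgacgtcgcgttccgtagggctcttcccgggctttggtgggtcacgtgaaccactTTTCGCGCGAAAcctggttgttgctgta
E2F1: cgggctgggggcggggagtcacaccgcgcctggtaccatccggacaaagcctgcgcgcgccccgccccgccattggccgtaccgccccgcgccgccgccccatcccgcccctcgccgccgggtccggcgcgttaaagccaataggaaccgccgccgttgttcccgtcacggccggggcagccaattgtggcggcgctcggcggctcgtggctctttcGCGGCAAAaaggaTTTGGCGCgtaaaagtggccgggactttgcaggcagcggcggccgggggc
The ORC1 window (chr1:52404394-52404673, minus strand) holds no E2F word. POLE2 (chr14:49688185-49688464, minus) has 1 word, starting at base -5 from the start site. CDC6 (chr17:40287629-40287908, plus) has 1, at base 8, and MCM2 (chr3:127598161-127598440, plus) has 2 that overlap, at bases 3 and 7. E2F1 (chr20:33686356-33686635, minus) has 2, at bases -33 and -20. Promoters of 36 of the 44 genes were matched by symbol, and 20 of the 36 (55.6%) held at least 1 word, beside 439 of 8176 (5.37%) of the tested genes with a matched promoter and 859 of 27305 (3.15%) of all promoters of that length. The words CCAAT and TTTGAA (the latter known as CHR, a late cell-cycle element), sought on both strands in the same windows, were in 21 (58.3%) and 1 (2.78%) of the 36, and in 37.6% and 9.11% of the tested genes. The E2F1 window, for example, holds 3 CCAAT words beside its 2 E2F words, and words of different kinds were counted separately.

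All 44 genes were well expressed. PCNA was the highest, with a mean of 408 FPKM over the 8 libraries, followed by TYMS at 285 and MCM7 at 195. Means of 7 genes lay above 100 FPKM, and those of CCNE1 (6.93), GINS4 (17.6) and WDR76 (19.7) below 20. CCNE1 also varied most, with a coefficient of variation of 20.6%, and RPA2 least, with 3.11%. Summed over the 44 genes, the WT libraries held 3208 to 3350 FPKM and SE culture B 3262 (vehicle) and 3257 (DOX), while SE culture A held 2873 and 2837. The SE A libraries thus formed the low end in either treatment, and 39 of the 44 genes had their lowest library there. E2F1 and WDR76 had their highest library there.

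**Figure D1:**
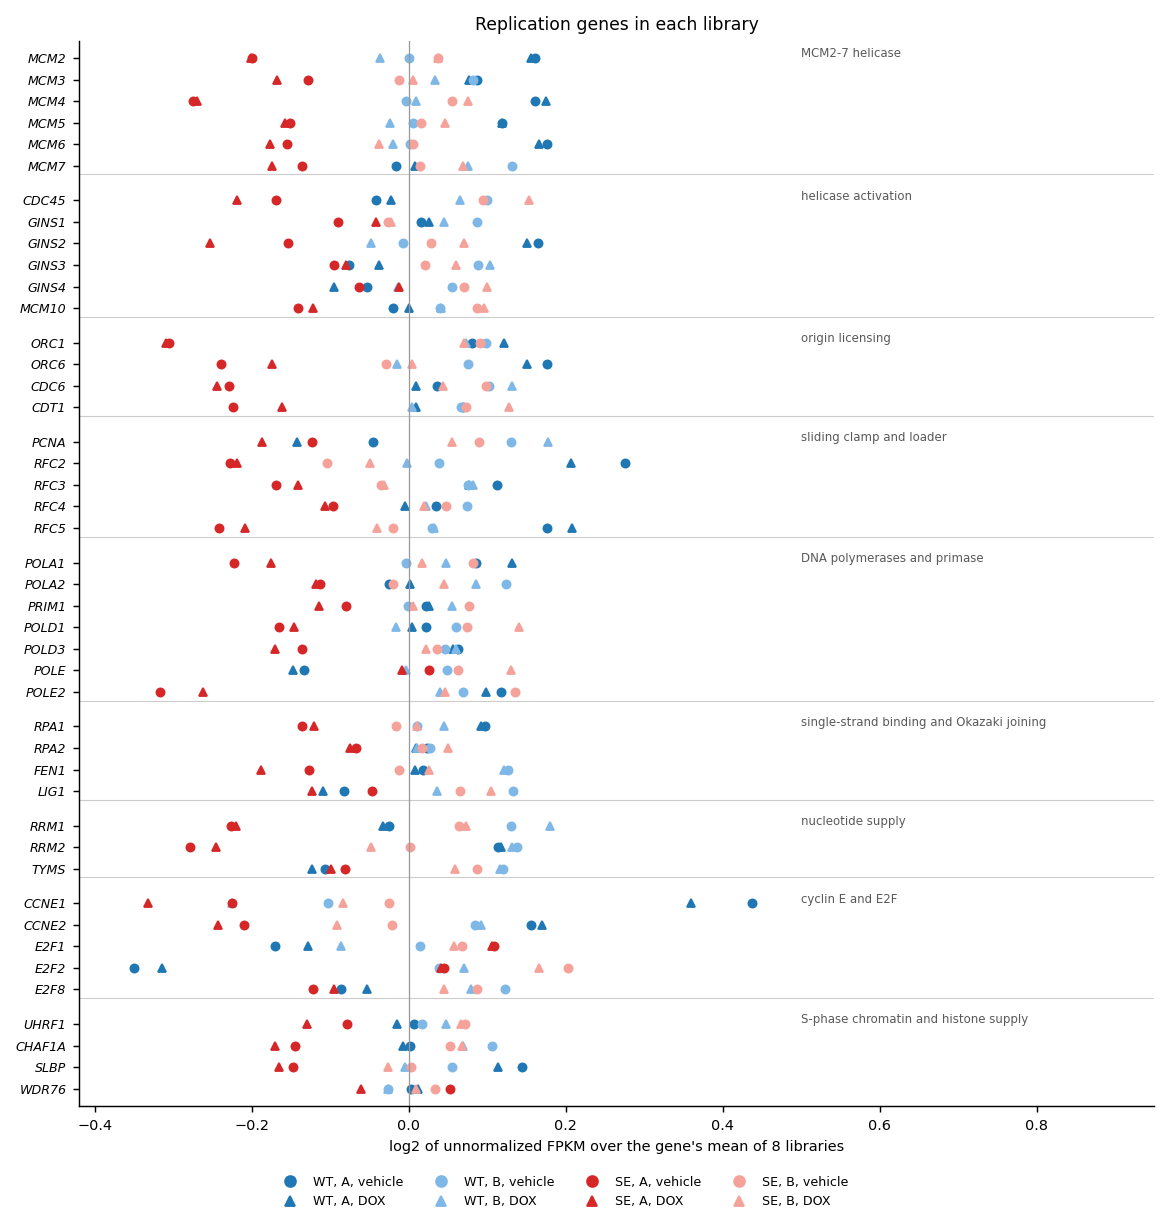
Each row is a replication gene and each point a library, placed at the log2 of its unnormalized FPKM over the gene's mean of 8 libraries. Colours give construct and letter, circles vehicle and triangles DOX, and the 2 SE A libraries (dark red) lie left of the other 6 for 36 of 44 genes.

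The clearest pattern was a lower level of nearly the whole machinery in SE culture A. That the SE cultures differ in these genes was known when the genes were set. The counts below describe that difference and are no independent support for it. In culture A against culture B of SE, 40 of 44 genes were lower at adjusted p under 0.05 and 0 were higher, beside 39.7% of all genes tested called and 24.6% called lower. The median difference of the 44 was -0.174 (11.3% lower), against -0.020 over all genes, and 43 of 44 were below 0, against 55.5% of all genes. Among the 8200 genes at or above the mean of CCNE1, the lowest of the 44, 31.1% were called lower. The libraries of culture A lay wholly below those of culture B for 42 genes (41.1% of all genes), and below all other 6 libraries for 36 (25.9% of all genes). The 4 genes not called were POLE, GINS1, WDR76 and E2F1. Of the 40 called, 8 lost the call without at least 1 of the 8 libraries: GINS4, ORC6, RFC2, RFC4, POLA2, PRIM1, LIG1 and CCNE1. This test takes the vehicle and the DOX library of a letter as its replicates, so its p measure the spread within a letter, which may be technical, and do not speak for further SE cultures. In bulk RNA, fewer cells in S phase and less of each transcript per cell cannot be told apart. The HMGN1 level, the spike-in share and the B-lineage sum given above also separated SE A from SE B, and their part in the difference was not tested. The B-lineage sum was lower in letter A of WT as well.

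**Figure D2:**
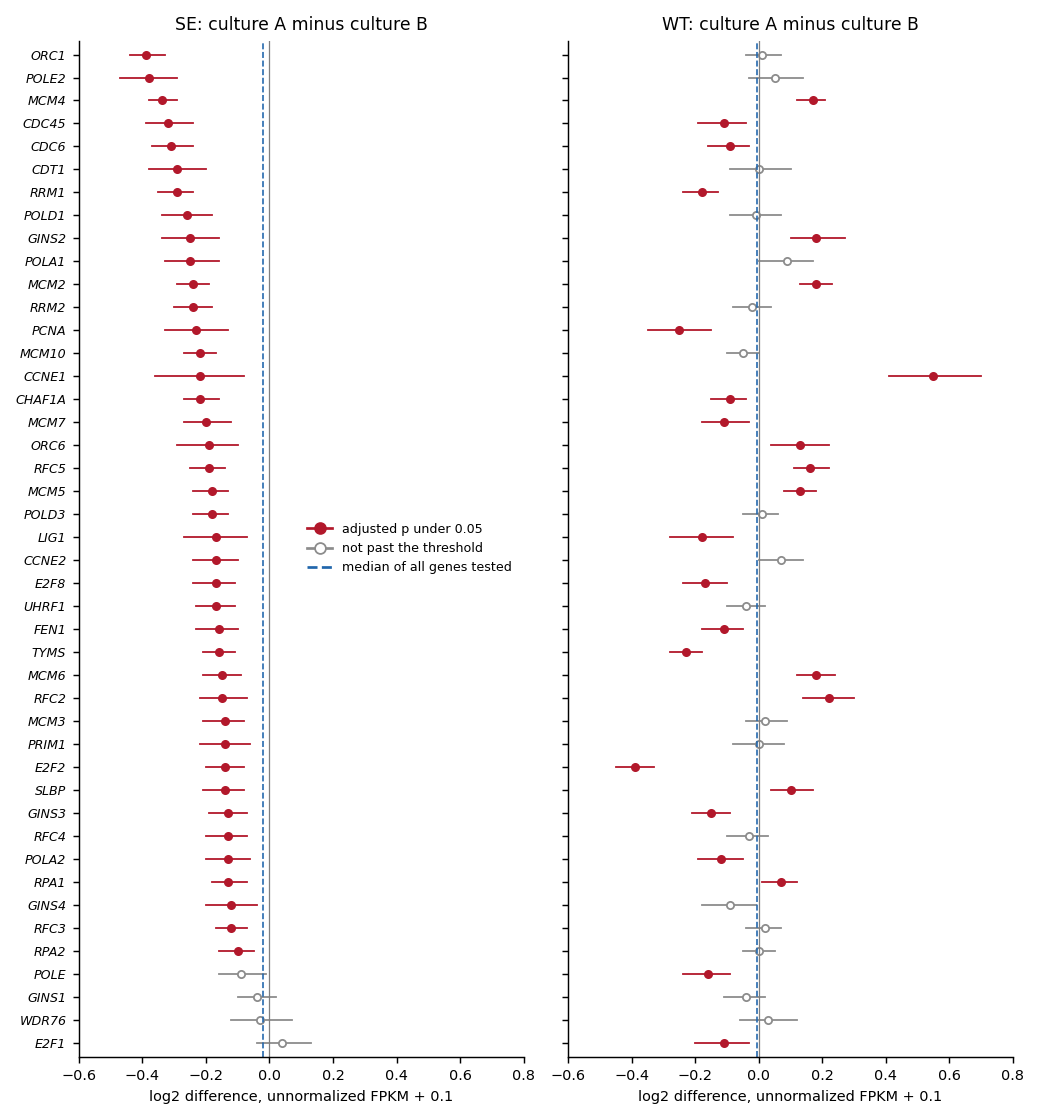
Points are log2 differences between cultures A and B (unnormalized FPKM + 0.1) with 95% intervals, for SE on the left and WT on the right, in the order of the SE difference. Filled red points passed adjusted p under 0.05, and the dashed line is the median of all genes tested; the SE points run from -0.39 to 0.04 and the WT points from -0.39 to 0.55.

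Origin licensing genes had the lowest median SE difference of any role, -0.30, and 4 of 4 were called lower, beside 24.6% of all genes. Counts by role, here and below, describe genes that were set with the SE difference known. In the values that follow, each pair gives vehicle first and DOX second. ORC1, the largest subunit of the origin recognition complex, stood at 27.7 and 28.5 FPKM in WT A, 28.1 and 27.6 in WT B, 21.2 and 21.2 in SE A and 27.9 and 27.6 in SE B. All 6 other libraries lay close together and the SE A libraries apart from them, a difference of -0.39 (standard error 0.024, adjusted p = 0.000288). ORC6, another subunit of that complex, had 50.1 and 49.3 FPKM in WT A, 46.8 and 43.9 in WT B, 37.6 and 39.3 in SE A and 43.5 and 44.5 in SE B, with WT A highest and SE A lowest, -0.19 in SE (adjusted p = 0.00867) and 0.13 in WT (0.0288). CDC6, the ATPase that joins the complex to load the helicase, was at 46.5 and 45.6 FPKM in WT A, 48.7 and 49.7 in WT B, 38.7 and 38.3 in SE A and 48.5 and 46.7 in SE B. Its SE A libraries fell below all others (-0.31, standard error 0.027, adjusted p = 0.000628), and its WT A libraries lay a little below WT B (-0.09, adjusted p = 0.0292). CDT1, which brings the helicase to the origin, had 31.9 and 30.6 FPKM in WT A, 31.8 and 30.5 in WT B, 26.0 and 27.2 in SE A and 32.0 and 33.2 in SE B. SE A was again lowest (-0.29, adjusted p = 0.00215), and the WT cultures overlapped (0.00). The difference between the SE and the WT difference was lower than 0 for all 4 licensing genes, from -0.21 (CDC6) to -0.40 (ORC1).

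The MCM2-7 helicase subunits unwind DNA at the fork. All 6 were called lower in SE A than in SE B, by -0.14 to -0.34, beside 24.6% of all genes called lower. MCM2 stood at 113 and 113 FPKM in WT A, 101 and 98.7 in WT B, 88.1 and 88.0 in SE A and 104 and 104 in SE B, with WT A above, SE A below and the B cultures of either construct level. MCM4 followed the same order with a wider gap, at 102 and 103 FPKM in WT A, 91.0 and 91.8 in WT B, 75.4 and 75.7 in SE A and 94.8 and 96.1 in SE B. Its differences were -0.34 in SE (standard error 0.019, adjusted p = 0.00025) and 0.17 in WT (0.019, adjusted p = 0.000972). MCM5 was at 101 and 101 FPKM in WT A, 93.1 and 91.2 in WT B, 83.5 and 83.1 in SE A and 93.7 and 95.7 in SE B. MCM6 was at 103 and 102 FPKM in WT A, 90.9 and 89.6 in WT B, 81.6 and 80.4 in SE A and 91.2 and 88.5 in SE B. These subunits, too, ran from SE A at the bottom to WT A at the top: the SE and WT differences were -0.18 and 0.13 for MCM5 and -0.15 and 0.18 for MCM6. MCM3 had 167 and 166 FPKM in WT A, 166 and 161 in WT B, 144 and 139.8 in SE A and 156 and 158 in SE B, and its WT cultures overlapped (0.02). MCM7, the highest of the subunits, had 193 and 196 FPKM in WT A, 214 and 206 in WT B, 178 and 173 in SE A and 197 and 205 in SE B, and here WT A lay below WT B (-0.11, adjusted p = 0.0294). The WT difference was thus above 0 at adjusted p under 0.05 for MCM2, MCM4, MCM5 and MCM6, and below 0 for MCM7. On the normalized scale the MCM7 difference in WT was 0.13, so that its direction turns with the scaling.

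**Figure D3:**
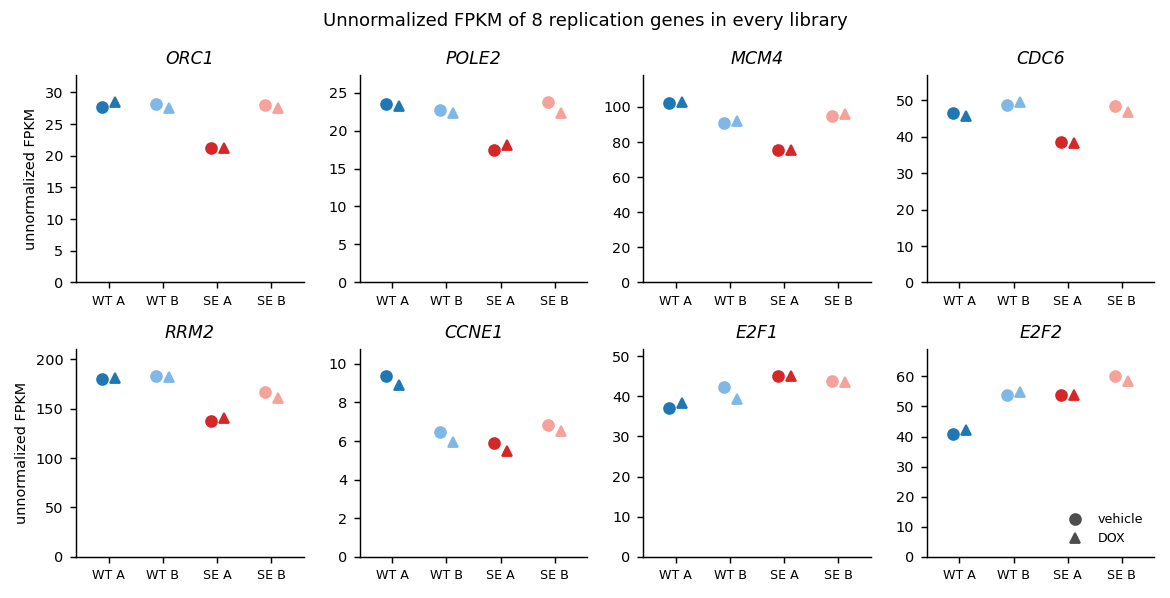
Unnormalized FPKM (axis from 0) of 8 genes in each library, circles vehicle and triangles DOX, by construct and letter. In ORC1, POLE2, MCM4, CDC6 and RRM2 the SE A pair stands alone below the rest, in CCNE1 the WT A pair stands alone above it at 9.38 and 8.89, and E2F1 and E2F2 follow another order.

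Of the factors that activate the loaded helicase, 5 of 6 were called lower in SE A, beside 24.6% of all genes. CDC45, part of the active helicase, had 55.5 and 56.2 FPKM in WT A, 61.2 and 59.8 in WT B, 50.8 and 49.1 in SE A and 61.0 and 63.5 in SE B, a difference of -0.32 in SE (standard error 0.03, adjusted p = 0.000786) and -0.11 in WT (0.0215). MCM10, which is needed for the helicase to start, had 31.5 and 31.9 FPKM in WT A, 32.8 and 32.9 in WT B, 28.95 and 29.4 in SE A and 33.9 and 34.1 in SE B. Both genes had their 2 lowest libraries in SE A, and the MCM10 difference was -0.22 (adjusted p = 0.000716). The GINS subunits, a complex of 4 proteins in the active helicase, did not move as 1 block. GINS2 was at 62.6 and 62.1 FPKM in WT A, 55.6 and 54.1 in WT B, 50.2 and 46.9 in SE A and 57.0 and 58.7 in SE B. Its difference was -0.25 in SE (adjusted p = 0.0032) and 0.18 in WT (0.00799), opposite in sign. GINS3 was at 34.3 and 35.2 FPKM in WT A, 38.5 and 38.9 in WT B, 33.9 and 34.3 in SE A and 36.7 and 37.7 in SE B, and GINS4 at 16.9 and 16.4 FPKM in WT A, 18.3 and 17.4 in WT B, 16.8 and 17.4 in SE A and 18.4 and 18.8 in SE B. In GINS3 the WT A libraries lay just above SE A, and in GINS4 they overlapped it: GINS3 differed by -0.13 in SE and -0.15 in WT, and GINS4 by -0.12 (adjusted p = 0.031) and -0.09 (0.0631). The GINS4 call in SE was lost when any 1 of the 4 SE libraries or of the 2 WT A libraries was left out (adjusted p = 0.0524 to 0.149). GINS1, at 33.6 and 33.9 FPKM in WT A, 35.3 and 34.3 in WT B, 31.3 and 32.3 in SE A and 32.7 and 32.7 in SE B, differed by -0.04 in SE (adjusted p = 0.257) and -0.04 in WT (0.206), which did not pass. All 4 WT libraries of GINS1 nevertheless lay above all 4 SE libraries.

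PCNA, the sliding clamp that tethers polymerases, was lower in letter A of either construct on the unnormalized scale. It had 395 and 369.8 FPKM in WT A, 447 and 461 in WT B, 374 and 358 in SE A and 434 and 424 in SE B. The 4 A libraries, at 358 to 395 FPKM, all lay below the 4 B libraries, at 424 to 461. The differences were -0.23 in SE (standard error 0.041, adjusted p = 0.00631) and -0.25 in WT (0.041, 0.00358). On the normalized scale the WT letters overlapped, at 498.9 and 454.4 FPKM in WT A and 475.3 and 485.5 in WT B. PCNA has processed pseudogenes, between which reads can be divided. The small subunits of replication factor C, the clamp loader, were all called lower in SE A, beside 24.6% of all genes. RFC2, RFC3 and RFC5 had every WT library above every SE library (11.5% of all genes). RFC2 had 78.6 and 75.0 FPKM in WT A, 66.7 and 64.9 in WT B, 55.5 and 55.8 in SE A and 60.4 and 62.8 in SE B, the widest span of the loader. RFC5 had 55.7 and 56.9 FPKM in WT A, 50.3 and 50.4 in WT B, 41.7 and 42.7 in SE A and 48.6 and 47.9 in SE B. WT A stood highest and SE A lowest in these subunits, with WT differences of 0.22 (adjusted p = 0.00229) and 0.16 (0.00208) and SE differences of -0.15 and -0.19. RFC3 was at 62.3 and 60.8 FPKM in WT A, 60.8 and 61.0 in WT B, 51.3 and 52.3 in SE A and 56.3 and 56.4 in SE B, and RFC4 at 57.4 and 55.8 FPKM in WT A, 59.0 and 56.9 in WT B, 52.4 and 52.0 in SE A and 57.9 and 56.8 in SE B. Both had SE A lowest (-0.12 and -0.13) and WT cultures that overlapped (0.02 and -0.03).

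Among DNA polymerase and primase subunits, 6 of 7 were called lower in SE A, beside 24.6% of all genes. POLE2, the second subunit of the leading-strand polymerase epsilon, had 23.5 and 23.2 FPKM in WT A, 22.7 and 22.3 in WT B, 17.4 and 18.1 in SE A and 23.8 and 22.4 in SE B. Its SE A libraries lay below the 6 others, a difference of -0.38 (standard error 0.036, adjusted p = 0.000826), and its WT difference was 0.05 (0.272). POLE, the catalytic subunit of that polymerase, did not follow: it had 31.2 and 31.0 FPKM in WT A, 35.5 and 34.2 in WT B, 34.9 and 34.1 in SE A and 35.8 and 37.5 in SE B. Here WT A was lowest (-0.16, adjusted p = 0.0073), and the SE difference of -0.09 did not pass (0.0691). POLA1, the catalytic subunit of the polymerase that begins each strand, had 22.7 and 23.4 FPKM in WT A, 21.3 and 22.1 in WT B, 18.3 and 18.9 in SE A and 22.6 and 21.6 in SE B. Its SE A pair lay below the rest (-0.25, adjusted p = 0.0029) and its WT difference of 0.09 did not pass (0.09). POLA2, the accessory subunit, was at 37.5 and 38.2 FPKM in WT A, 41.6 and 40.5 in WT B, 35.3 and 35.2 in SE A and 37.6 and 39.4 in SE B. PRIM1, the primase that makes the RNA primer, was at 41.8 and 41.9 FPKM in WT A, 41.1 and 42.7 in WT B, 38.9 and 38.0 in SE A and 43.4 and 41.3 in SE B. SE A was lowest in both, at -0.13 and -0.14, and their WT differences were -0.12 (0.0183) and 0.00 (0.949). POLD1, the catalytic subunit of the lagging-strand polymerase delta, had 36.9 and 36.5 FPKM in WT A, 37.9 and 36.0 in WT B, 32.4 and 32.8 in SE A and 38.3 and 40.1 in SE B. POLD3, an accessory subunit of it, had 25.7 and 25.6 FPKM in WT A, 25.4 and 25.6 in WT B, 22.4 and 21.8 in SE A and 25.2 and 25.0 in SE B. SE A was lowest in both, and the other 6 libraries of POLD3 kept within 25.0 to 25.7 FPKM. The delta subunits had SE differences of -0.26 and -0.18 and WT differences of -0.01 and 0.01.

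Genes for single-strand binding and for joining Okazaki fragments had a median difference of -0.145 between SE cultures. In SE A, 4 of 4 were called lower, beside 24.6% of all genes. RPA1 and RPA2 are subunits of the protein that coats single-stranded DNA. RPA1 had 57.4 and 57.1 FPKM in WT A, 54.0 and 55.3 in WT B, 48.8 and 49.3 in SE A and 53.01 and 54.0 in SE B. RPA2 had 67.7 and 67.1 FPKM in WT A, 67.9 and 67.1 in WT B, 63.6 and 63.3 in SE A and 67.4 and 69.0 in SE B. The SE A libraries were the lowest in both, and the whole range of RPA2 over 8 libraries was only 63.3 to 69.0 FPKM. The differences in SE were -0.13 and -0.10. FEN1, which trims the flap of an Okazaki fragment, had 96.8 and 96.1 FPKM in WT A, 104 and 104 in WT B, 87.6 and 83.9 in SE A and 94.8 and 97.3 in SE B. LIG1, the ligase that seals the nick, had 29.7 and 29.1 FPKM in WT A, 34.4 and 32.2 in WT B, 30.4 and 28.9 in SE A and 32.9 and 33.8 in SE B. In these genes letter A lay below letter B in either construct: FEN1 by -0.16 in SE and -0.11 in WT, and LIG1 by -0.17 and -0.18. For LIG1 the 4 A libraries of the constructs overlapped, so SE A did not stand apart. On the normalized scale the WT differences were 0.12 and 0.05, of the other sign.

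Of the enzymes that supply deoxyribonucleotides, 3 of 3 were called lower in SE A, beside 24.6% of all genes. RRM1 and RRM2 are the large and the small subunit of ribonucleotide reductase. RRM1 had 94.0 and 93.5 FPKM in WT A, 105 and 108 in WT B, 81.8 and 82.1 in SE A and 100.0 and 101 in SE B. RRM2 had 180.3 and 181 FPKM in WT A, 183 and 182 in WT B, 137 and 141 in SE A and 167 and 161 in SE B. RRM1 ran from SE A over WT A and SE B to WT B, with differences of -0.29 (standard error 0.023, adjusted p = 0.000466) in SE and -0.18 (0.00123) in WT. RRM2 was level among the WT libraries (-0.02), lower in SE B and lowest in SE A (-0.24, adjusted p = 0.00101), and every WT library lay above every SE library. TYMS, which makes thymidylate, had 265 and 262 FPKM in WT A, 309.7 and 309 in WT B, 269 and 266 in SE A and 303 and 297 in SE B. It split by letter and not by construct, with the 4 A libraries at 262 to 269 FPKM and the 4 B libraries at 297 to 309.7. Its differences were -0.16 in SE (adjusted p = 0.00206) and -0.23 in WT (0.000367), and on the normalized scale the WT value was 0.00. The TYMS gene overlaps ENOSF1 on the other strand, and no strand information is known to be kept, so reads of the overlap cannot be assigned.

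Cyclin E and the E2F factors, which set off the transition, were the least uniform group. CCNE1, a cyclin that activates CDK2, had 9.38 and 8.89 FPKM in WT A, 6.45 and 5.93 in WT B, 5.92 and 5.50 in SE A and 6.81 and 6.53 in SE B. The WT A libraries stood above the 6 others, a WT difference of 0.55 (standard error 0.058, adjusted p = 0.000639), while SE A was lowest, next to WT B in DOX, with an SE difference of -0.22 (standard error 0.058, adjusted p = 0.0257). Its SE difference minus its WT difference was -0.78, the farthest from 0 of the 44 genes. The SE call of CCNE1 was lost without SE DOX A (-0.17, adjusted p = 0.143), without SE vehicle B (-0.19, 0.12) and without SE DOX B (-0.25, 0.0707). CCNE2, the second cyclin E, had 32.5 and 32.8 FPKM in WT A, 30.9 and 31.1 in WT B, 25.2 and 24.7 in SE A and 28.8 and 27.4 in SE B. It ran from SE A over SE B to the WT libraries without overlap of the constructs, with a difference of -0.17 (adjusted p = 0.00554) between SE cultures and 0.07 (0.0793) between WT cultures.

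E2F1, an activator of the genes above, had 37.2 and 38.3 FPKM in WT A, 42.2 and 39.4 in WT B, 45.1 and 45.1 in SE A and 43.9 and 43.5 in SE B. It was the single gene of the 44 with all SE libraries above all WT libraries, and SE A lay slightly above SE B (0.04, standard error 0.036, adjusted p = 0.357), which did not pass. On the normalized scale that difference was -0.21, of the other sign, where 90.7% of all genes were below 0. E2F2, another activator, had 41.0 and 42.0 FPKM in WT A, 53.6 and 54.8 in WT B, 53.9 and 53.7 in SE A and 60.1 and 58.6 in SE B. WT A was far below the other libraries (-0.39, standard error 0.025, adjusted p = 0.000118), SE A lay within the range of WT B, and SE B was highest (-0.14, 0.006). E2F8, a repressor of the family, had 24.1 and 24.7 FPKM in WT A, 27.9 and 27.0 in WT B, 23.5 and 24.0 in SE A and 27.2 and 26.4 in SE B. Letter A lay below letter B in either construct, by -0.17 and -0.17, but on the normalized scale the WT difference was 0.056.

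Of the genes that package new DNA, 3 of 4 were called lower in SE A, beside 24.6% of all genes. UHRF1, which recognises hemimethylated DNA behind the fork, had 82.7 and 81.4 FPKM in WT A, 83.2 and 85.0 in WT B, 77.9 and 75.2 in SE A and 86.5 and 86.1 in SE B. CHAF1A, the large subunit of the histone chaperone CAF-1, had 41.0 and 40.7 FPKM in WT A, 44.1 and 42.9 in WT B, 37.0 and 36.4 in SE A and 42.5 and 42.9 in SE B. SLBP, which binds the stem-loop of histone mRNAs, had 129 and 126 FPKM in WT A, 121 and 116 in WT B, 105 and 104 in SE A and 117 and 114 in SE B. SE A was lowest in these, at -0.17, -0.22 and -0.14, while the WT differences were -0.04 (0.285), -0.09 (0.019) and 0.10 (0.023). WDR76, a WD-repeat protein, had 19.7 and 19.9 FPKM in WT A, 19.3 and 19.3 in WT B, 20.4 and 18.9 in SE A and 20.2 and 19.8 in SE B. Its SE A libraries were at once the highest and the lowest of all 8, and its difference of -0.03 (adjusted p = 0.632) did not pass.

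The WT cultures differed too, but not in 1 direction. In culture A against culture B of WT, 26 of 44 genes passed, 11 higher and 15 lower, beside 45.2% of all genes called, 22.5% higher and 22.7% lower. The median of -0.006 lay at that of all genes (-0.005). Values ran from -0.39 (E2F2) to 0.55 (CCNE1). The count rests in part on WT culture A: without its vehicle library 14 genes passed, and without its DOX library 15. The LYZ level, and with it the myeloid sum that LYZ dominates, also separated WT A from WT B. So did the B-lineage sum given above and the spike-in share (0.531% and 0.538% in WT A, 0.558% and 0.569% in WT B). The part of these measures in the difference was not tested. Of the 40 genes lower in SE A, 13 were lower, 11 higher and 16 not called in WT A. The 11 that were lower in SE A and higher in WT A were MCM2, MCM4, MCM5, MCM6, GINS2, ORC6, RFC2, RFC5, RPA1, CCNE1 and SLBP. The test of the SE difference minus the WT difference called 30 genes, 28 lower and 2 higher (E2F1 and E2F2), beside 43.8% of all genes, 25.3% lower. Its median was -0.170, against -0.019 over all genes. This test contains the SE difference that was known when the genes were set.

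The normalized table, in which the spike-in sums are nearly equal (7050 to 7166 FPKM), moved all genes together, and the 44 with them. The all-gene median of SE A against SE B was -0.271 there, and the median of the 44 was -0.425, with 44 of 44 below 0 (90.7% of all genes). On that scale 11 of the 44 passed, beside 9.56% of all genes: MCM4, CDC45, MCM10, ORC1, CDC6, CDT1, POLA1, POLD1, POLE2, RRM1 and CCNE1. ORC1 differed there by -0.64 (adjusted p = 0.0112) and POLE2 by -0.63 (0.0104). In WT the all-gene median was 0.218 and that of the 44 was 0.222. CCNE1, at 0.77 (adjusted p = 0.000577), was the 1 gene called in WT there, beside 12.8% of all genes. Summed over the 44 genes, normalized levels were 4092 and 3962 FPKM in WT A, 3596 and 3500 in WT B, 3230 and 2962 in SE B, and 2601 and 1999 in SE A.

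Libraries labelled DOX, in which HMGN1 itself was not higher, were then set against vehicle, and none of the 44 genes was called. In WT 0 of 44 passed, beside 0.0441% of all genes, and none came under 0.05 before adjustment (0.335% of all genes). The median was -0.015 (all genes -0.002), and values ran from -0.10 (CCNE1) to 0.05 (POLA1). The DOX libraries lay wholly below vehicle for CDT1, RFC4, POLD1, MCM3 and RPA2 and wholly above it for PRIM1, that is 5 and 1 of 44, beside 6.08% and 6.36% of all genes. In SE, again 0 of 44 passed, beside 0.0529% of all genes, and unadjusted p under 0.05 were 0 as well (0.3% of all genes). The median was -0.007, with values from -0.08 (CCNE1) to 0.06 (CDT1). WDR76 was the 1 gene whose DOX libraries lay wholly below vehicle, beside 5.44% of all genes. The test of the WT minus the SE effect called 0 genes, beside 0.0441% of all genes, with values from -0.12 (CDT1) to 0.08 (PRIM1), and the lowest adjusted p of the 44 was 1.0 in each of these comparisons.

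The precision of the DOX comparisons was limited, in part by the fit, which counts the difference between letters as error. The median half-width of the 95% interval of a gene was 0.26 in either construct. Within a letter the libraries were close: the median absolute difference of DOX and vehicle over the 44 genes was 0.020 in WT A, 0.037 in WT B, 0.030 in SE A and 0.035 in SE B, whereas A and B differed by 0.106 and 0.084 in WT vehicle and DOX, and by 0.167 and 0.185 in SE. Leaving out 1 library turned the SE median: 0.091 without SE DOX A and 0.081 without SE vehicle B, against -0.100 without SE vehicle A and -0.102 without SE DOX B. In WT it was 0.001 without WT vehicle B. On the normalized scale the median in SE was -0.249, beside -0.240 over all genes, and in WT -0.045, beside -0.032.

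**Figure D4:**
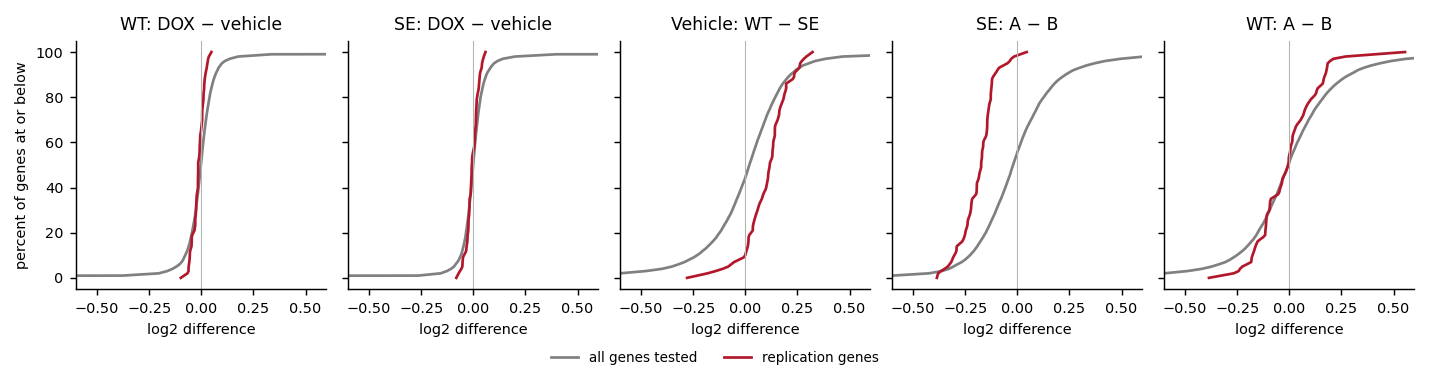
Curves give the percent of genes at or below each log2 difference (unnormalized FPKM + 0.1), for the 44 replication genes in red and all 11340 genes tested in grey, in 5 comparisons. The red curve follows the grey one at 0 for DOX, lies right of it for WT against SE in vehicle (medians 0.117 and 0.019) and left of it for SE A against B (-0.174 and -0.020).

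WT against SE, the constructs compared within a treatment, gave higher medians in WT but no call. In vehicle the median of the 44 was 0.117 (all genes 0.019), 0 passed, beside 0.176% of all genes, and 3 had an unadjusted p under 0.05, beside 6.91% of all genes. These were RFC2 (0.32), CCNE2 (0.23) and RFC3 (0.20), each with adjusted p = 0.67. In DOX the median was 0.099 (all genes 0.018), 0 passed, beside 0.097% of all genes, and CCNE2 (0.30, adjusted p = 0.649) and E2F1 (-0.19, adjusted p = 0.718) had an unadjusted p under 0.05, that is 2 of 44, beside 6.66% of all genes. WT libraries lay wholly above SE for 13 genes in vehicle and 14 in DOX, beside 23.6% and 20.7% of all genes. These comparisons share the SE libraries with the comparison of the SE cultures, and they changed with the SE library left out. Without SE vehicle A the vehicle median was 0.004, and without SE vehicle B it was 0.198. Without SE DOX A the DOX median was 0.001, and without SE DOX B it was 0.210. Set against the mean of the WT libraries, SE B had a median of -0.003 over the 44 genes, 22 of them below 0, and SE A had -0.209, 40 below 0. Over all genes these medians were -0.008 and -0.025.

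All 4 WT libraries lay above all 4 SE libraries for MCM3, GINS1, RFC2, RFC3, RFC5, POLD3, RRM2 and CCNE2, 8 of 44, beside 11.5% of all genes. E2F1 was the 1 gene with the reverse order, beside 7.89% of all genes.

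Other genes of the cycle were read from lists written next to the 44. Their counts are to be set beside all genes tested, of which 24.6% were called lower and 15.1% higher in SE A against SE B (median -0.020), and 22.7% lower and 22.5% higher in WT A against WT B (median -0.005). Of 28 further replication factors, 18 were lower and 0 higher in SE A than in SE B, with a median of -0.131. CHAF1B, the partner of CHAF1A, differed by -0.36 (-0.13 in WT A against B). CHTF18, a subunit of another clamp loader, differed by -0.34 (-0.37 in WT), and TIMELESS, a fork protection factor, by -0.29 (-0.13 in WT). Of 12 genes of nucleotide supply and S-phase chromatin, 7 were lower and 1 higher, with a median of -0.109. GMPS, an enzyme of GMP synthesis, differed by -0.31 (-0.09 in WT), and NASP, a histone chaperone, by -0.25 (0.02 in WT). RRM2B, the p53-induced small subunit of ribonucleotide reductase, differed by 0.16 (0.10 in WT). In WT A against B the 28 factors had 12 lower and 3 higher, and the 12 genes had 5 lower and 0 higher.

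The regulators of the transition were mixed. Of 20 tested (CCND1 and CCND2 did not reach the minimum), 8 were lower and 3 higher in SE A, beside 24.6% and 15.1% of all genes, with a median of -0.091. CCND3, the D cyclin that reached it, differed by -0.36, RBL1, a pocket protein, by -0.28, TFDP1, the dimer partner of E2F, by -0.26, and the kinases CDK4 and CDK2 by -0.22 and -0.19. The inhibitors CDKN1A (0.28, and 0.09 in WT) and CDKN1B (0.14, and -0.20 in WT) and TFDP2 (0.17, and 0.09 in WT) were the 3 that were higher. In WT 9 were lower, among them E2F7 (-0.54), RBL1 (-0.48) and CCND3 (-0.41), and 1 was higher, E2F4 (0.14), beside 22.7% and 22.5% of all genes.

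Of 28 genes listed under G2/M and mitosis, 16 were lower and 0 higher in SE A, beside 24.6% and 15.1% of all genes. The median of the list was -0.127. DLGAP5 (-0.29, and -0.34 in WT), AURKA (-0.28, and -0.15 in WT) and CCNA2 (-0.27, and -0.15 in WT) were among the lower genes. The other 12 were not called, with FOXM1 at -0.02 and MYBL2 at 0.06. In WT A, 22 were lower and 1 higher, beside 22.7% and 22.5% of all genes, with a median of -0.210, among them AURKB (-0.49), MYBL2 (-0.40) and TOP2A (-0.38). The medians of the 44 replication genes were -0.174 in SE and -0.006 in WT, and the lists were not tested against each other. Both SE A libraries lay below the other 6 for 5 of the 28 G2/M genes and for 19 of the 28 further replication factors, beside 25.9% of all genes.

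Targets of p53, a list that holds CDKN1A as well, had a median of 0.118 in SE A against B, with 6 higher and 2 lower of 18, beside 15.1% and 24.6% of all genes. BTG2, an antiproliferative gene, differed by 0.91 (adjusted p = 8.74e-05), ZMAT3 by 0.51 and CDKN1A, the CDK inhibitor p21, by 0.28. In WT A against B these genes stood at 0.14, 0.02 and 0.09. MDM2, the ligase that degrades p53, differed by -0.23 (-0.43 in WT) and FDXR by -0.19 (-0.06 in WT). In WT 2 were higher and 8 lower, beside 22.5% and 22.7% of all genes, with a median of -0.159. These values stand beside the lower replication genes of SE A as measurements, and their part in the difference was not tested.

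**Figure D5:**
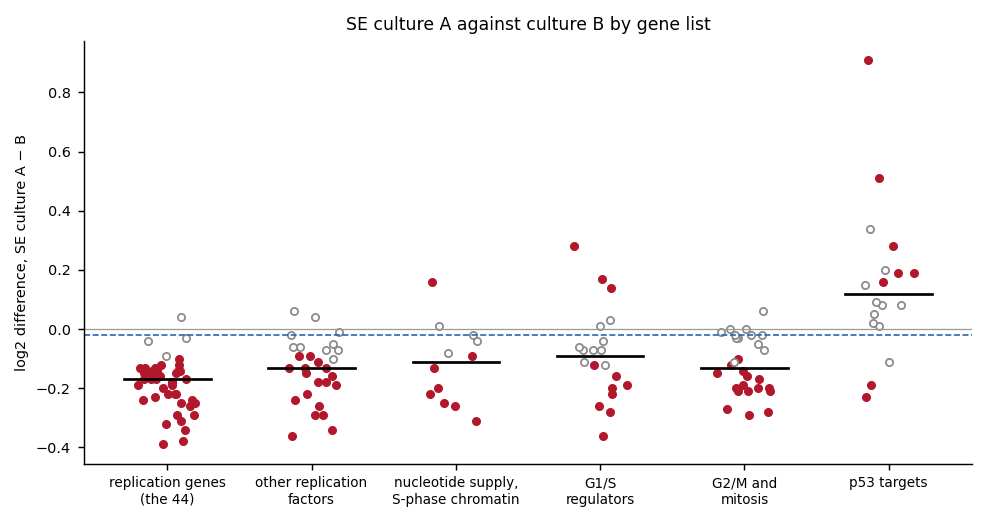
Each point is a gene's log2 difference between SE cultures A and B (unnormalized FPKM + 0.1), filled where adjusted p was under 0.05, black bars are list medians and the dashed line the median of all genes. The replication genes have a median of -0.174 and the p53 targets of 0.118.

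The differences of genes with and without an E2F word in the promoter are given as a description, with no test between the classes. In SE A against B, the 20 of the 44 with a word had a median of -0.166 and 17 were called lower, and the 16 without one had -0.206 and 16 were called lower. ORC1, with none of the 4 exact words, and POLE2, with 1, had nearly the same difference. E2F1, with 2, was not called, and the sign of its difference turned on the normalized scale. These genes were picked by their differences, and no role of E2F sites was tested. Genes without a word may hold other forms of the site, so the classes do not separate genes with and without E2F sites. Among tested genes outside the 44, 29.8% of 419 with a word and 26.0% of 7721 without one were called lower, with medians of -0.05 and -0.022. In WT A against B, the 20 with a word had a median of -0.069, with 10 called lower and 3 higher, and the 16 without one had -0.006, with 4 lower and 6 higher. Outside the 44, 22.2% and 23.9% were called lower in WT, with medians of -0.012 and -0.009.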

How the data were processed

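Poly(A) RNA of 8 NALM6 libraries was measured. The authors deposited an unnormalized and a normalized table of FPKM with 23713 rows, 92 for spike-ins. The submitters' processing notes name HISAT, Cufflinks 2.0.0 and hg19. How the second table was normalized is not given in the sources used, and FPKM scaled to mapped fragments removes any change shared by all genes. Genes with a mean of at least 1 unnormalized FPKM over the 8 libraries were tested (11340, 298 of them with small RNA names) as log2(FPKM + 0.1), which understates changes of low genes. limma 3.58.1 in R 4.3.3 was used with a mean-variance trend and a threshold of 0.05. It was fitted once to the 4 construct and treatment groups and once to the 4 construct and letter cultures. Only the SE culture test and the DOX test in SE were tried on simulated data. Those data held no difference between letters except changes added to SE culture A, so they do not speak for the DOX tests here. The unnormalized table came first because the 44 genes were set with it. Alternatives were the normalized table, equal library medians, no filter, pseudocounts of 0.01 and 1, small RNA names left out, a letter block, treatment as a term, fewer groups in the fit, and each library left out.

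The genes and all lists were chosen with earlier results of these data known, so no p is given over a list. By the naming rule, all 44 genes are described by role with their library values, and from other lists the genes called in a comparison or, failing those, the 3 of smallest p in the comparison of the SE cultures; the text gives examples of these. Promoters came from RefSeq on GRCh38.p14 and no coordinate of the hg19 tables is printed. Same-letter deviations from group means had rank correlations of 0.774 (WT) and 0.736 (SE) over the genes tested and Pearson values of 0.073 and 0.093. Between the constructs the rank correlations were 0.019 (vehicle) and -0.06 (DOX). The main DOX tests did not take the letters as pairs, since the labels do not state it and each construct has 2. The culture fit does group libraries by construct and letter.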

Additional observations from a re-analysis of the deposited data

Results flagged for a closer look

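The difference between letters A and B was tested against the construct (SE difference minus WT difference, limma, log2 scale). Of the 44 genes, 30 differed at adjusted p under 0.05, beside 43.8% of all genes (25.3% called lower). The SE difference, a part of this test, was known when the genes were set, so the count is no independent support. The p measure the spread within a letter. Nothing in the labels ties a letter of WT to the same letter of SE, so the test compares the SE difference with the WT difference. Whether the constructs share a factor by letter cannot be told from the labels. In the helicase, the values were -0.41 for MCM2, -0.17 for MCM3, -0.5 for MCM4, -0.31 for MCM5 and -0.33 for MCM6. Among activation and licensing genes they were -0.2 for CDC45, -0.44 for GINS2, -0.17 for MCM10, -0.4 for ORC1, -0.33 for ORC6, -0.21 for CDC6 and -0.3 for CDT1. In the clamp loader RFC2 had -0.37, RFC3 -0.14 and RFC5 -0.36. Of the polymerase subunits POLA1 had -0.33, POLD1 -0.25, POLD3 -0.19 and POLE2 -0.43. RPA1 had -0.19, RPA2 -0.1, RRM1 -0.11 and RRM2 -0.22. The cyclins CCNE1 and CCNE2 had -0.78 and -0.24, and UHRF1, CHAF1A and SLBP had -0.14, -0.13 and -0.25. E2F1 (0.16) and E2F2 (0.24) were the 2 genes above 0. With 2 libraries a group, single outlying libraries could not be looked for.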

How the results depend on the processing

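In SE A against SE B the direction of the median held in every setting run, and the count of called genes lay between 33 and 40 of 44 except in the normalized table, where it was 11 and the median was -0.425. The lowest count was without SE DOX A. In WT A against WT B the count was 1 in the normalized table (median 0.222) and 14 to 25 with 1 library left out. In the normalized table the signs of 13 genes called in WT turned: MCM7 0.125, CDC45 0.115, GINS3 0.076, CDC6 0.136, POLA2 0.112, POLE 0.066, FEN1 0.121, LIG1 0.048, RRM1 0.048, TYMS 0.002, E2F1 0.117, E2F8 0.056 and CHAF1A 0.138. The difference of the culture differences had a median of -0.65 there, with E2F1 at -0.323 and E2F2 at -0.236. The normalized medians were -0.249 for DOX in SE, 0.204 for the WT minus the SE effect, 0.417 for WT against SE in vehicle and 0.611 in DOX. With 1 library left out these medians ran from -0.102 to 0.091, -0.104 to 0.095, 0.004 to 0.198 and 0.001 to 0.21, since letters then become unbalanced. With a replicate block, 0 of 44 genes passed for DOX in WT, in SE and in their difference (lowest adjusted p 0.996, 1.0 and 0.996), and the half-width of the 95% interval fell from 0.26 to 0.076 in each construct. With the replicate block and the normalized table together, a setting chosen after seeing the data, 2 genes of 44 passed in SE, CCNE1 and WDR76, beside 1926 (17.0%) of all genes, with a median of -0.249. That holds only if the letters pair the samples. Depth is unknown, so no counting error can be given.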
